A study of Mus musculus with 28 samples.

Results

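Acetylation of lysine 5 of histone H4 (H4K5Ac) was mapped by chromatin immunoprecipitation and sequencing in IDG-SW3 cells, a mouse bone cell line, at day 35 and at day 3 of differentiation. Its members were the 2 lists of called regions whose titles name that mark, of 28 samples in the series. On chromosomes 1 to 19 the lists held 71148 regions at day 35 and 67130 regions at day 3, and all 26 lists analysed held 937290 regions over all chromosomes. Each region list was set against 21281 protein-coding genes of chromosomes 1 to 19. IDG-SW3 cells divide under an interferon-inducible, temperature-sensitive T antigen and carry a transgene in which Dmp1 sequence drives GFP, whose reads also fall on Dmp1.

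The day-35 cells had matured at 37 °C in medium with ascorbic acid and β-glycerol phosphate and without interferon gamma. The day-3 cells were early in the same protocol. Both came from cells expanded at 33 °C with 50 U/mL interferon gamma, and no hormone or vehicle treatment was recorded for either. Time since interferon, temperature and maturation cannot be told apart in this comparison. Differentiated cells were freed of calcified matrix by EDTA washes and homogenisation. The labels name H4K5Ac throughout, while the list of antibodies in the protocol spells it H3K5Ac. There was 1 library a day, so no difference below has a replicate check and no test of the days was made.

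H4K5 is acetylated on newly made histone H4 by HAT1 before the histone is placed into chromatin, and in active chromatin by p300, CBP and TIP60. The mark lies over active promoters and enhancers and is bound, together with neighbouring acetyl-lysines, by the BET bromodomain proteins. In bone, osteoblasts secrete and mineralize a collagen matrix, and those that are buried in it become osteocytes with long dendrites.

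Genes of 39 lists were followed by how much of the gene and 5 kb on each side lay inside H4K5Ac regions, called the gene window here. Start-site coverage is the same share for 1 kb on each side of the start site. The largest rises of start-site coverage among listed genes were at Mmp3, Mmp11 and Hey1 and the largest falls at Cnn1, Irf8 and Sema3e. Their 250 bases upstream of the start are shown because H4K5Ac was listed there at only 1 of the days. Sequences are from the NCBIM37 (mm9) assembly, 5′ to 3′, and capitals mark matches on either strand to any of 10 motifs described further on.
Mmp3 promoter, chr9:7445572-7445821, plus strand: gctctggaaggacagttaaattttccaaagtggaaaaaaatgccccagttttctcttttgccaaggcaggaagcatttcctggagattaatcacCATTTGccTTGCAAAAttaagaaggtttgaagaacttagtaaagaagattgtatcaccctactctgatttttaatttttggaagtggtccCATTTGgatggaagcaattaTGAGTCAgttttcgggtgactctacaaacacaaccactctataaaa
Mmp11 promoter, chr10:75400679-75400928, minus strand: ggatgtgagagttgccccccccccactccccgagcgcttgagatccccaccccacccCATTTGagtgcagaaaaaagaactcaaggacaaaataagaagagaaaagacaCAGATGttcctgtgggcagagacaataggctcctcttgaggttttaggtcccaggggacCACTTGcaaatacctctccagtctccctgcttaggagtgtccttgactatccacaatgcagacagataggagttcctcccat
Hey1 promoter, chr3:8667040-8667289, minus strand: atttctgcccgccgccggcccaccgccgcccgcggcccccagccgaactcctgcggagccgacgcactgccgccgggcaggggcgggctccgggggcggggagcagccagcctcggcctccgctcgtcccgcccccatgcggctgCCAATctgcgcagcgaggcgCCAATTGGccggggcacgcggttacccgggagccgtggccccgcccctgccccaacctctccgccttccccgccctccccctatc
Cnn1 promoter, chr9:21903475-21903724, plus strand: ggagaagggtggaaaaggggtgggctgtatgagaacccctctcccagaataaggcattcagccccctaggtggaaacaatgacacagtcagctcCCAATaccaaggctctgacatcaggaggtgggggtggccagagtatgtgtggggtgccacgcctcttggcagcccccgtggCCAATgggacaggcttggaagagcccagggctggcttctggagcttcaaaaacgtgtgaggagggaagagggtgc
Irf8 promoter, chr8:123260008-123260257, plus strand: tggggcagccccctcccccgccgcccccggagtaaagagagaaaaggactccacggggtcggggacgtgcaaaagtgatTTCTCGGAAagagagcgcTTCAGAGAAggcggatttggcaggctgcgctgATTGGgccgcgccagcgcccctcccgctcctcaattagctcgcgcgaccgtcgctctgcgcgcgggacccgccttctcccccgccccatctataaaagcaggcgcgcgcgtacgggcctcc
Sema3e promoter, chr5:14025026-14025275, plus strand: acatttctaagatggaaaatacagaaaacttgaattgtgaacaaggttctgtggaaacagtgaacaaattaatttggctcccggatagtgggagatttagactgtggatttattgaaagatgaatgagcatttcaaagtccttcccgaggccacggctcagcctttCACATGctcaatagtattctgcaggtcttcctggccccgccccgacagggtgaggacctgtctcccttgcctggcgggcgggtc

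Mmp3 encodes stromelysin, a matrix proteinase, Mmp11 a further matrix proteinase, and Hey1 a transcription factor induced by Notch. The start sites of all 3 were 100.0% covered at day 35 and 0% at day 3. Their gene windows were covered to 62.9% at day 35 and 24.5% at day 3 for Mmp3, 68.6% and 37.1% for Mmp11, and 28.4% and 0% for Hey1. The change of Hey1 was 0 with the higher-scoring 50% of each list and at equal covered length, and 8.88 points with 20 kb flanks, so its call ends there. The Mmp3 promoter held the AP-1 letters TGAGTCA at -46 from the start, a C/EBP match and a pair of E-boxes. In Hey1, CCAAT on both strands overlapped an E-box.

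Cnn1 encodes the smooth muscle protein calponin, Irf8 an interferon-induced transcription factor, and Sema3e a guidance factor. Start-site coverage was 0% at day 35 for all 3, against 100.0% for Cnn1, 100.0% for Irf8 and 93.9% for Sema3e at day 3. Their gene windows moved less, by -20.8, -16 and -19.9 percentage points. The Irf8 promoter held a pair of STAT letters, TTCTCGGAA at -171 and TTCAGAGAA at -153. Of all 21281 promoters of this length, 6.8% held a STAT match, 5.99% an AP-1 match, 9.14% a C/EBP match, 34.7% CCAAT and 63.3% an E-box. A match is a description of the letters and not evidence of binding.

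H4K5Ac covered more of the genome at day 35. Regions of the day-35 list summed to 330.27 Mb and those of the day-3 list to 293.13 Mb, which is 13.4% and 11.9% of the 19 chromosomes and a ratio of 1.13. Both lists shared 239.6 Mb, 62.4% of all bases covered at either day. Of the 90.63 Mb covered at day 35 alone, 24.14 Mb lay in gained regions, which share no base with a day-3 region, and 66.48 Mb in regions present at both days. Of the 53.48 Mb covered at day 3 alone, 11.57 Mb lay in lost regions and 41.91 Mb in regions present at both days. Most of the difference between the days was thus in the width of shared regions.

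The depth of the libraries was not given. The low scores of the authors' lists rose in steps of 0.124 at day 35 and 0.14 at day 3. Among values up to 15 that were either found in the list or predicted by such steps, 80.5% at day 35 and 84.1% at day 3 were both, after rounding to 0.1. If a step is 1 read scaled to a common total, the day-35 library held 1.13 times the reads of the day-3 library, the same ratio as the covered lengths. The part of depth in the longer day-35 list was not tested.

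Gained regions numbered 16871, or 23.7% of the day-35 list (95% exact binomial interval 23.4 to 24.0), and lost regions 10562, or 15.7% of the day-3 list (15.5 to 16.0). Intervals here cover counting error only, and regions of a list are not independent. Both classes were narrow, with a median width of 912 bp for gained and 680 bp for lost regions, against 3033 bp and 2698 bp for kept regions of the day-35 and day-3 lists. Both had low scores: the authors' score of a region had a median percentile of 19.9 for gained and 15.5 for lost regions within their lists. When the day-35 list was limited by score to the covered length of the day-3 list, 2560 regions were gained and 25666 lost. When it was limited to the same number of regions, 14157 were gained and 11606 lost, so which class is larger depends on how the lists are matched.

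**Figure D1:**
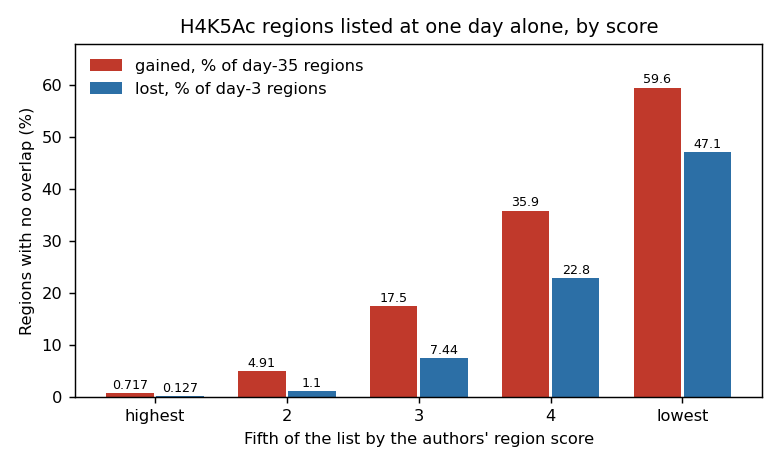
Share of H4K5Ac regions with no overlap in the other day's list (y axis, percent) by 5 equal classes of the authors' score (x axis, highest to lowest); red bars are gained regions as a share of day-35 regions and blue bars lost regions as a share of day-3 regions. In the highest-scoring class 0.717% were gained and 0.127% lost, and in the lowest class 59.6% and 47.1%.

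Gained and lost regions lay away from promoters. The region centre was within 1 kb of a start site in 2.97% of gained and 2.83% of lost regions, against 13.2% and 12.8% of the kept regions of the 2 lists. Introns held 47.8% of gained and 49.3% of lost regions, and intergenic sequence 46.0% and 44.7%. The median distance to the nearest region of the other day was 7.58 kb for gained and 6.04 kb for lost regions. Only 8.97% of gained and 5.79% of lost regions were over 50 kb from any region of the other day.

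The other histone marks of the same days are readouts that the choice of regions did not use. H3K27Ac, which marks enhancers and promoters in use, overlapped 54.3% of gained regions at day 35 (53.5 to 55.0) and 11% at day 3. It overlapped 13.1% of lost regions at day 35 and 42.4% at day 3 (41.5 to 43.4). H3K9Ac followed the same order at lower shares, with 19.2% of gained regions at day 35 and 3.88% at day 3. Of lost regions it overlapped 6.83% at day 35 and 14.0% at day 3. In kept regions the shares of both marks differed little between the days, with H3K27Ac at 85.7% and 88.4% of kept day-35 regions.

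H3K4me1, a mark of enhancers both active and poised, was present at many of these regions on the day without H4K5Ac. It overlapped 83.5% of gained regions at day 35 and already 48.9% at day 3. Of lost regions, 44.3% still carried it at day 35, against 71.8% at day 3. The promoter mark H3K4me3 overlapped 0.385% of gained and 0.54% of lost regions on their own day. H3K4me2 overlapped 29.7% of gained regions at day 35 and 3.89% at day 3. Its share of lost regions was 14.9% at day 35 and 12.2% at day 3, with a day-35 list that covered 1.48 times the length of its day-3 list.

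**Figure D2:**
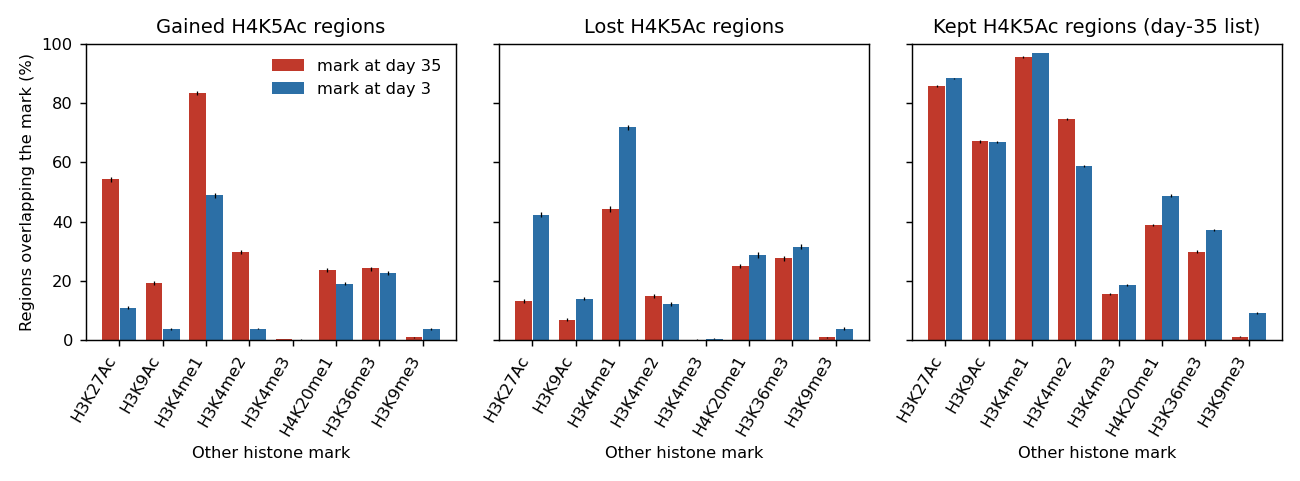
Share of gained, lost and kept H4K5Ac regions (panels) that overlap each of 8 other histone marks by at least 1 bp (y axis, percent); red bars are the mark at day 35, blue bars at day 3, and lines are 95% exact binomial intervals of counting error. H3K27Ac reached 54.3% of gained regions at day 35 against 11% at day 3, and 13.1% of lost regions at day 35 against 42.4% at day 3.

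At many gained and lost regions no other acetyl mark was listed. Neither H3K27Ac nor H3K9Ac was listed on their own day at 41.2% of gained and 55.5% of lost regions, compared with 10.9% and 12.5% of kept regions at day 35 and day 3. Among regions at least 1 kb wide, a width chosen after the data had been seen, H3K27Ac overlapped 76.5% of gained regions at day 35 and 68% of lost regions at day 3. With only the higher-scoring 50% of each list it overlapped 97.5% of gained and 97.9% of lost regions on their own day. That setting had 7511 gained and 4628 lost regions. Of the gained and lost regions of the full lists, only 1772 and 477 lay in the higher-scoring 50%. Most regions of that setting thus overlapped a lower-scoring region of the other day.

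Binding of the vitamin D receptor (VDR) and of RXR, with which it pairs, was mapped at day 35 only, in 2 replicates, after 3 h of 100 nM 1,25-dihydroxyvitamin D3 or vehicle. Of 1202 VDR sites called in both hormone replicates, 47 lay in gained regions, 5 in lost regions and 1046 in kept day-35 regions. Per megabase of region that is 1.95 sites in gained, 0.432 in lost and 3.42 in kept regions. RXR gave the same order over 6735 sites, with 8.49, 2.94 and 20.6 sites per megabase.

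Of the gained regions 28, and of the lost regions 6, were in the highest-scoring 10% of their lists. The highest-scoring gained region spanned 33.4 kb and overlapped Btla, an immune checkpoint receptor gene (chr16:45241106-45274484), at rank 929 of the day-35 list. H3K27Ac covered 74.6% of it at day 35 and 0% at day 3. A pair of further gained regions lay at and beside Cd200, a surface glycoprotein gene nearby (chr16:45364239-45386360 and chr16:45326726-45338173), with 95.1% and 83.3% under H3K27Ac at day 35 and 0% at day 3. The other high-scoring gained regions lay in introns of Slit2, a guidance ligand gene (chr5:48671218-48695213), of Plcg2, a phospholipase gene (chr8:120138824-120153042), and of Prr16, and in intergenic sequence near Hao1, Plxna2 and Cdkn2b. The region near Cdkn2b, a cell cycle inhibitor gene (chr4:89014137-89040979), was covered by H3K27Ac to 66.7% at day 35 and to 97.3% at day 3. H3K9Ac covered it to 15.2% and 52.7%, H3K4me1 to 78.1% and 100.0%, and H3K36me3 to 0% and 100.0%. These marks thus stood higher at day 3, the opposite of H4K5Ac.

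The highest-scoring lost regions lay near Amotl2. These neighbouring intergenic regions, beside an angiomotin family gene (chr9:102642877-102666922 and chr9:102669019-102688181), held ranks 605 and 635 of the day-3 list. H3K9Ac covered them to 58.7% and 87.4% at day 35 and to 67.9% and 98.7% at day 3, H3K4me1 to 77.2% and 98.8% at day 35 and to 80.1% and 98.9% at day 3, and H3K27Ac to 0% at both days. H3K4me2 covered them to 15.5% and 43.4% at day 35 and to 28.7% and 27.4% at day 3. At Gm10320 (chr13:99254729-99276670) H3K27Ac covered 82.2% of the lost region at day 35 and 84.0% at day 3, while H3K9Ac covered 36.1% and 47.8% and H3K4me1 0% and 98.2%. At the lost region nearest to Wnt16, in an intron of A430107O13Rik (chr6:22096694-22117433), H3K27Ac covered 66.8% at day 35 and 37.0% at day 3, and H3K4me1 56.2% and 20.1%. H3K27Ac did move with H4K5Ac at Tnfaip8l3, a lipid transfer protein gene (chr9:53915121-53925040), and Sema3e (chr5:14024399-14034947), whose start sites lay inside the lost regions. It covered these to 0% at day 35, against 92.5% and 88.1% at day 3. Intergenic losses lay near Dach1, a transcription factor gene (chr14:97791084-97804647), with H3K27Ac at 0% at day 35 and 82.8% at day 3, and near Gm10306 (chr4:93880427-93897439), with 0% and 31.2%.

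Over genes, more windows rose than fell. A call here means a difference of over 25 percentage points of the gene window between day 35 and day 3. Of 21281 genes, 717 (3.37%) rose and 248 (1.17%) fell, while the median change over all genes was 0 and the mean 1.77 points. Higher genes had a median coverage of 64.8% at day 35 and 28.3% at day 3, and lower genes 30.6% and 68.4%. With the day-35 list limited by score to the covered length of the day-3 list, 602 genes rose and 445 fell, so the share of calls that were rises was 57.5% in place of 74.3%. Leaving out day-35 regions can only lower a gene's change. All 602 were therefore bound to be among the 717, and all 248 bound to stay among the 445.

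**Figure D3:**
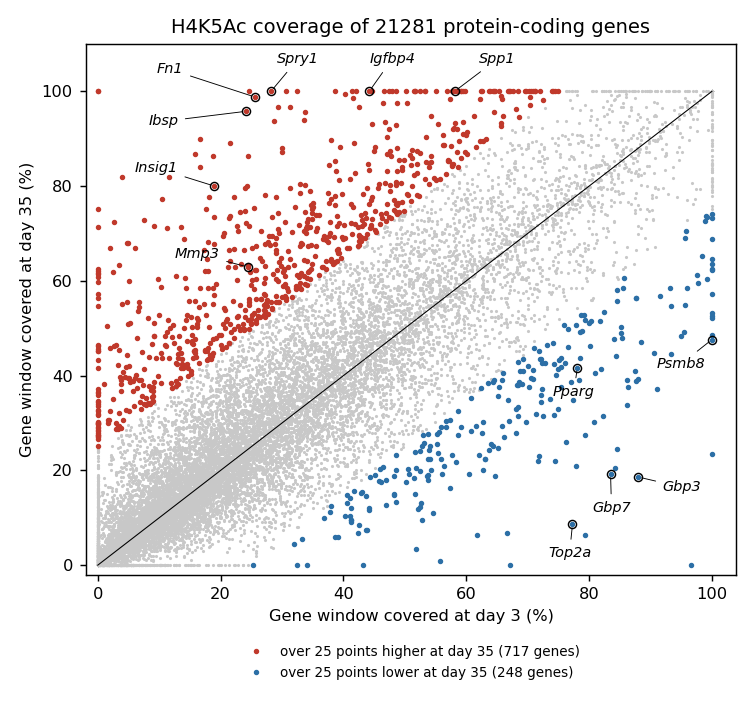
H4K5Ac coverage of the gene window (gene and 5 kb on each side, percent) at day 35 (y axis) and day 3 (x axis) for 21281 protein-coding genes, 1 point a gene; red points are 717 genes over 25 points higher at day 35, blue points 248 genes over 25 points lower, and the line marks equal coverage. Spry1, Fn1 and Ibsp lie near the top at 100.0%, 98.8% and 95.8% at day 35, and Top2a, Gbp3 and Gbp7 near the bottom right at 8.62%, 18.6% and 19.2%.

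Most start sites kept their state. At least 50% of the start-site window was covered at both days in 10909 genes and at neither in 9283. It was covered at day 35 alone in 677 genes (3.18%) and at day 3 alone in 412 (1.94%). At equal covered length the order turned, with 470 start sites gained and 689 lost. With equal numbers of regions it did not, at 677 gained and 412 lost, nor with the higher-scoring 50% of each list, at 696 and 487. Of the 717 higher genes 458, and of the 248 lower genes 172, had the start site covered at both days.

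H3K27Ac moved the same way at most called genes. Its coverage was over 10 points higher in 84.8% of the higher genes, compared with 18.3% of all genes, and over 10 points lower in 74.2% of the lower genes, compared with 6.05% of all genes. For H3K9Ac the shares were 43.9% and 7.34%, and 38.3% and 3.8%. Across the 15901 genes with any H4K5Ac coverage, the changes in H4K5Ac and H3K27Ac had a Pearson r of 0.61 (Spearman rho 0.612), those in H4K5Ac and H3K4me1 0.58, and those in H4K5Ac and H3K9Ac 0.447. Genes are not independent replicates, and the lists share the cells of a day.

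Osteoblast genes were among those that rose. Of 18 measured, 5 rose (27.8%, compared with 3.37% of all genes) and none fell, with a median change of 13.4 points and a median coverage of 90.7% at day 35 and 59.2% at day 3. Over 2 kb on each side of the start site the median was 0, with 3 genes higher and 1 lower. Ibsp, which encodes bone sialoprotein (chr5:104728190-104740488), rose to 95.8% at day 35, against 24.2% at day 3, with H3K27Ac 77.7 points higher. Spp1, osteopontin (chr5:104864137-104870069), was fully covered at day 35 and at 58.1% at day 3. Pth1r, the parathyroid hormone receptor, was at 100.0% and 58.6%, and its start site at 100.0% and 3.25%. Postn, periostin, was at 100.0% and 59.8%.

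Some osteoblast genes were widely covered at both days. Col1a1, the main bone collagen chain, Col1a2 and Sp7, an osteoblast transcription factor, were at 100.0% at both days. Runx2, the master regulator of the lineage, was at 90.7% at day 35 and 75.6% at day 3. Dmp1, a matrix protein of osteocytes, was at 88.3% and 80.3%. There H3K4me3 covered 45.6% and 45.3% of the window, H3K36me3 45.6% and 45.9%, and H4K20me1 45.0% and 45.3%. H3K9me3, a mark of silent chromatin, covered 45.3% and 46.0%, so marks of active and of silent chromatin had near-equal shares. The part of transgene reads in these values and in H4K5Ac was not tested.

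Mineralization genes rose in 5 of 15 cases (33.3%) and fell in none, at a median change of 7.2 points, compared with 3.37% rises over all genes. The median was 1.52 points at equal covered length and 0 over 2 kb at the start site. Smpd3, a sphingomyelinase needed for mineralization, reached 100.0% at day 35, against 51.5% at day 3, and its start site 100.0% against 17.7%. Ank, a pyrophosphate transporter, was at 72.4% and 30.5%. Slc20a1, a phosphate transporter, was at 85.3% and 57.2%. With Spp1, counted in both lists, and Phospho1, a phosphatase of matrix vesicles at 65.9% and 39.2%, these made up the rises.

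Osteocyte markers moved unevenly. Of 14 measured, 3 rose (21.4%, compared with 3.37% of all genes) and none fell. Cd44, a hyaluronan receptor, was at 92.1% at day 35 and 57.9% at day 3. Gja1, the gap junction protein connexin 43, was at 100.0% and 63.9%, and Tnfsf11, the osteoclast-inducing ligand RANKL, at 45.0% and 7.22%. Mepe, a late matrix protein, was at 81.2% and 82.0%. The late markers Sost, the Wnt inhibitor sclerostin, at 7.78% and 8.5%, and Fgf23, the phosphate-regulating hormone, at 9.32% and 8.44%, had start sites covered at neither day. Phex lies on the X chromosome and was not analysed here.

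Marker lists of other cells differed in coverage. Over all genes the median window coverage was 15.1% at day 35 and 13.8% at day 3. It was 0% at both days for neural genes, 2.22% at day 35 and 4.84% at day 3 for myogenic genes, and 8.22% and 6.62% for endothelial genes. Chondrocyte genes had 16.9% and 19.8%, with none of 10 called. Smooth muscle and fibroblast genes had 59.4% and 37.1%, and 3 of 14 rose, compared with 3.37% of all genes. None of these 9 neural, 10 myogenic and 8 endothelial genes passed 25 points, and 5 of the neural genes were uncovered at both days. In the adipocyte list Pparg, the master regulator of fat cells (chr6:115311239-115440419), fell to 41.7% at day 35, against 78.1% at day 3, while the list's median change was 1.37 points. In the haematopoietic and osteoclast list 1 of 12 genes rose (8.33%, compared with 3.37% of all genes) and none fell. Its median change was 2.76 points, and 0 at equal covered length. The gene that rose was Sfpi1, which encodes the myeloid factor PU.1, at 71.5% at day 35 and 24.7% at day 3. The part of other cells in these values was not tested.

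Vitamin D target genes rose in 4 of 19 cases and fell in none: Ank, Spp1 and Postn, all in other lists too, and Tnfsf11. Over all genes 3.37% rose. The list's median change was 9.31 points, 2.54 at equal covered length and 0 over 2 kb at the start site. Vdr itself was at 19.2% at day 35 and 18% at day 3, and Cyp24a1, which degrades the hormone, was uncovered at both days.

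FGF ligands, FGF receptors and feedback genes of ERK signalling rose in 6 of 22 cases (27.3%, compared with 3.37% of all genes) and fell in none. Over 2 kb on each side of the start site the list's median was 0, with 2 genes higher and 1 lower. Spry1 (chr3:37538869-37543520), an inhibitor of receptor tyrosine kinase signalling, was fully covered at day 35 and at 28.2% at day 3. Its relative Spry4 was at 49.2% and 11.2%, the ligand gene Fgf1 at 54.5% and 6.63%, and Dusp5, a phosphatase that acts on ERK, at 78.9% and 47.6%. The start sites of all 4 were fully covered at both days.

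Secreted Wnt regulators made up the Wnt rises, 4 of 24 genes (16.7%, compared with 3.37% of all genes) with no falls. Wisp1, a Wnt target, was at 100.0% at day 35 and 65.4% at day 3, the antagonists Dkk2 at 50.3% and 16.2%, Sfrp4 at 73.2% and 43.7%, and Sfrp1 at 85.4% and 57.1%. Of 33 genes of the BMP and TGF-beta pathway 3 rose (9.09%, compared with 3.37% of all genes) and none fell. Tgfb3, a ligand, rose to 78.5% at day 35, against 37.5% at day 3, Grem1, a BMP antagonist, to 62.4%, against 25.7%, and Tgfbr2, a receptor, to 81.5%, against 55.7%. In the IGF list Igfbp4, an IGF-binding protein, was at 100.0% and 44.2%, and Irs1, an adaptor of the insulin and IGF receptors, at 97.5% and 50.4%.

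Matrix and metabolic genes with large rises included Fn1, fibronectin (chr1:71632094-71699774), at 98.8% at day 35 and 25.6% at day 3. Insig1, a regulator of sterol synthesis, was at 80.0% and 19%. Vegfa, the vascular growth factor, was at 71.8% and 32.8%. Falls in matrix genes were at Adamts5, an aggrecan-cleaving proteinase, at 47.2% and 88.4%, and Lox, which cross-links collagen, at 50.3% and 85.2%. At Lox H3K27Ac was 19.9 points higher at day 35, the opposite of its H4K5Ac.

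**Figure D4:**
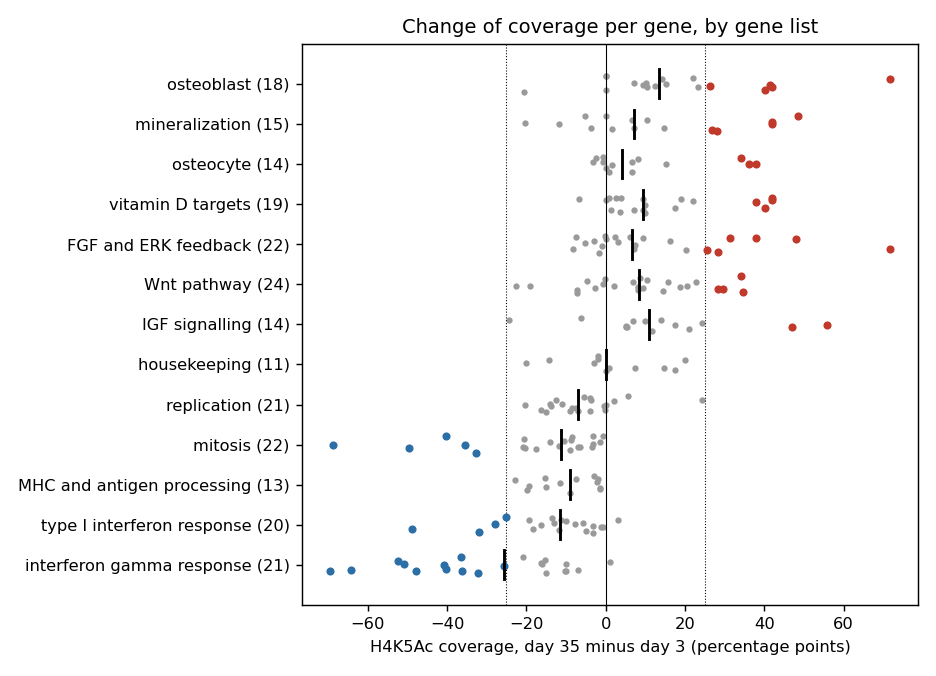
Change of H4K5Ac window coverage, day 35 minus day 3 (x axis, percentage points), for each gene of 13 lists (rows, number of genes in brackets); grey points are within 25 points, red points rose, blue points fell, black bars are medians and dotted lines mark 25 points. The interferon gamma list has a median of -25.6 and the osteoblast list of 13.4 points.

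Over the gene window the interferon gamma response had the lowest median change of the 39 lists. Of 21 genes 11 fell (52.4%, compared with 1.17% of all genes) and none rose. The median change was -25.6 points, and the median coverage 31.4% at day 35 and 65.9% at day 3. Over 2 kb on each side of the start site this list's median was -7.0, and other lists were lower. There mitosis genes had -29.2, MHC and antigen processing genes -19.6, replication genes -17.7 and type I interferon genes -11.4. Gbp3 and Gbp7, guanylate-binding proteins of antimicrobial defence (chr3:142223016-142236173 and chr3:142193302-142213047), fell to 18.6% and 19.2% at day 35, against 88% and 83.5% at day 3. Psmb8, an immunoproteasome subunit, was at 47.6% and 100.0%, and Igtp, an immunity-related GTPase, at 31.4% and 82.3%. Ciita, the regulator of MHC class II genes, was at 7.48% and 43.8%. The windows of Gbp3 and Gbp7 adjoin, and that of Tap1 overlaps those of Psmb8 and Psmb9, so these calls are not independent.

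The start sites of 17 of the 21 genes were covered at day 35, and of 20 at day 3. The type I interferon list fell in 4 of 20 genes at a median of -11.5 points, with Ifit1 at 37.6% at day 35 and 86.4% at day 3 and Ifit2 at 42.4% and 74.3%, both antiviral RNA-binding proteins. MHC and antigen processing genes had all 13 changes below 0, at a median of -8.9 points, and none past 25 points. Of their start sites 4 were covered at day 3 alone, compared with 1.94% over all genes. In the family of guanylate-binding proteins, named after its values were seen, 5 of 11 genes fell (45.5%, compared with 1.17% of all genes). Gbp11 rose, to 43.4% at day 35, against 17.8% at day 3.

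Cell cycle lists differed from each other. All 22 mitosis genes had changes below 0, with a median of -11.2 points. There were 5 falls (22.7%, compared with 1.17% of all genes) and 5 start sites covered at day 3 alone (compared with 1.94% over all genes). Top2a, a topoisomerase of dividing cells (chr11:98854257-98885503), was at 8.62% at day 35 and 77.3% at day 3, and its start site at 43.5% and 100.0%. Kif11, a spindle motor, was at 22% and 71.7%, Cenpa, the centromeric histone, at 27.9% and 68.1%, and Ccnb1, cyclin B1, at 20.9% and 56.4%. Mki67, the proliferation marker Ki-67, was at 9.19% and 26.8%. None of 21 replication genes passed 25 points, at a median of -6.94 points. Of 21 regulators of the G1 phase 1 fell (4.76%, compared with 1.17% of all genes) and none rose, at a median of -0.3 points. Among 66 replication-dependent histone genes, a family named after its values were seen, 7 fell and none rose, compared with 1.17% falls over all genes. They were Hist1h1b and Hist1h3i, Hist1h3c and Hist1h2bb, and Hist2h2aa2, Hist2h2aa1 and Hist2h3c1. Windows overlap within each of these groups, so the 7 calls are not independent.

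The enzymes and readers of the mark moved both ways. Of 25 genes 2 rose and 2 fell (8.0% each, compared with 3.37% and 1.17% of all genes). Hat1, the acetyltransferase of new histone H4, fell to 14.7% at day 35, against 40.6% at day 3, and Myst1, which acetylates lysine 16 of H4, to 18.5%, against 44.3%. The change of Hat1 ended within 25 points with 20 kb flanks (-19.5), over the body alone (-22.9), over 2 kb at the start (-11.6) and with the higher-scoring 50% of each list (-17). Brd7, a bromodomain protein, rose to 67.7%, against 27.3%, and Sirt2, a deacetylase, to 51.8%, against 24.5%. Ep300, which encodes p300, was at 17.3% and 25.9%. All these start sites were fully covered at both days.

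Gene families added a few called members, which were named after their values were seen. Of 41 collagen genes 5 rose, compared with 3.37% of all genes, and none fell, among them Col5a1, a regulator of fibril width, at 87.5% at day 35 and 52.0% at day 3, and Col11a1 at 71.6% and 34.1%. Ctgf, a matricellular target of YAP, was at 98.7% and 41.5%. Ccl11, the chemokine eotaxin, rose to 60.5%, against 9.88%, while the chemokine genes Cxcl1, Cxcl2 and Cxcl9 fell. At Cxcl1 H3K27Ac differed by 1.52 points. Of the proteasome genes Psmb8 and Psmb9 fell and Psmb10, also an immunoproteasome subunit, rose to 80.9%, against 48.5%. By nearest gene, 39 gained regions were assigned to Auts2 and 26 to Myc, while 55 lost regions were assigned to Cdh18 and 44 to Cited2. In all, 16871 gained regions had 7052 nearest genes and 10562 lost regions 5238. The length of sequence nearest to each gene was not taken into account, so these counts do not show clustering.

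Measured in kilobases, the largest rises were spread over long genes. Cacna2d3, a calcium channel subunit gene of 827.0 kb with flanks, gained 216.0 kb net and was at 34.3% at day 35 and 8.18% at day 3, with its start site uncovered at both. The change of Cacna2d3 was 26.2 points, but it was no call at equal covered length (23), with the higher-scoring 50% of each list or the chromosome mean subtracted (24.7 each), or over 2 kb at the start (0). Thsd4, a microfibril-associated protein, gained 188.0 kb (63.2% and 29.9%), Cdk14, a kinase, 170.0 kb (76.6% and 49.5%), Bcas3 159.0 kb, Arhgap24 146.0 kb, and Adam12, a metalloproteinase, 133.0 kb (52.3% and 15.1%). Tmtc1, Kif26b, Adamts17 and Gli2, the last a transcription factor of Hedgehog signalling, gained between 96.4 and 121.0 kb. H3K27Ac was higher at day 35 at all these 10 genes, by 13.0 to 42.6 points.

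Large falls in kilobases were also measured. Zfpm2, a GATA cofactor, lost 152.0 kb and was at 6.0% at day 35 and 39.1% at day 3. Sema3a, a guidance factor known from nerve and bone, lost 129.0 kb (52.7% and 79.1%), Glis1, a zinc finger factor, 88.5 kb (32.9% and 75%), Angpt1, a ligand of blood vessel growth, 67.7 kb (52.9% and 78.7%), and Rspo2, an amplifier of Wnt signalling, 65.9 kb (19.3% and 60.5%). Pparg followed with 50.7 kb. AI314180, Gm765, Slco2a1, Ndufs4, Arhgap5 and Ahrr lost between 32.2 and 45.4 kb. H3K27Ac was lower at day 35 at all 12 genes.

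A few genes moved in H4K5Ac while H3K27Ac and H3K9Ac each moved by less than 5 points: 29 higher and 12 lower genes. The largest of them in kilobases was Tspan14, a tetraspanin, at 38.1% at day 35 and 7.38% at day 3, with its start site at 100.0% and 0% and H3K27Ac at 11.6% and 6.99%. Lrrc15, a membrane protein of matrix-producing cells, was at 69.4% and 37.7%. In the other direction Cp, ceruloplasmin, was at 51.2% and 80.0%, Wnt16, a Wnt ligand known from bone, at 22.3% and 54.1%, and Rab26, a vesicle GTPase, at 60.3% and 99.2%, its start site at 0% and 100.0%. These genes did not move in H4K5Ac alone, because H3K4me1 moved the same way at each gene named here. Its change was 13.8 points at Tspan14, 20.2 at Lrrc15, -31.5 at Cp, -37.6 at Wnt16 and -20.3 at Rab26. At Tspan14 H4K20me1 was also 29.7 points higher.

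The change was uneven along the genome. Between 1-Mb bins the largest net rise was on chromosome 10 (chr10:116000001-117000000, 303.0 kb). It lay inside a block of 1.62 Mb where 9 of 22 genes rose, compared with 3.37% of all genes. The block was defined by a run of wide H3K4me3 regions of day 35, so H3K4me3 values in it are no separate readout. H4K5Ac covered 76.1% of that block at day 35 and 41.7% at day 3. Gm239 lies in it, at 89.9% at day 35 and 16.6% at day 3, and there H3K4me3 covered 95.7% and 0% of the window and H3K9me3 50.3% and 12.9%, so marks of active and of silent chromatin both stood higher at day 35. The next rises were at chr1:73000001-74000000 (278.0 kb) and at chr3:37000001-38000000 (244.0 kb), which holds Spry1. The 3 largest net falls were -394.0 kb at chr3:147000001-148000000, -281.0 kb at chr10:16000001-17000000 and -270.0 kb at chr16:86000001-87000000, none of which holds a protein-coding gene.

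Whole chromosomes differed as well. The covered length at day 35 over that at day 3 ran between 0.948 on chromosome 4 and 1.41 on chromosome 1. There 74 of 1225 genes rose and 3 fell (6.04% and 0.245%, compared with 3.37% and 1.17% of all genes). Chromosome 1 also had the highest ratio for H3K27Ac (1.47), H3K9Ac (1.24), H3K4me1 (1.18), H3K4me2 (1.77) and H3K9me3 (1.56), against median chromosomes of 1.17, 1.05, 0.981, 1.48 and 1.07. What the marks share on a chromosome was not measured, and its part in the gene calls was not tested. Taking the mean change of its own chromosome from each gene, an alternative chosen after the data had been seen, left 582 of the 717 higher and 247 of the 248 lower genes called.

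DNA letters differed between gained and lost regions. The motifs searched on both strands were AP-1 TGANTCA, RUNX TGTGGT, the interferon element (GAAA, then NN, then GAAA), STAT TTCNNNGAA, C/EBP TTGCNNAA, MEF2 (CTA, then NNNN, then TAG), TEAD GGAATG, the E-box CANNTG, the steroid pair ACANNNTGT and CCAAT. AP-1 and RUNX factors are regulators of osteoblast genes, and IRF and STAT factors bind interferon and STAT elements. Each was counted in the central 1 kb of regions at least 1 kb wide, 7790 gained and 3362 lost among 105052 regions of both lists. N stands for any base, and the STAT and interferon letters can overlap.

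The interferon element was more frequent in lost regions, and AP-1 and RUNX in gained regions. As lost minus gained the differences were 8.8, -7.5 and -8.0 points, and 8.2, -9.8 and -4.2 points at 40 to 44% GC, so their order depends on GC. The interferon element was found in 13.8% of gained (95% exact interval 13.0 to 14.5) and 22.6% of lost regions (21.2 to 24.0), and in 15.3% of all regions. AP-1 was found in 38% of gained and 30.5% of lost regions (32.5% of all), and RUNX in 62.5% and 54.5% (57.1% of all). Lost regions were poorer in G and C, at 44.7% for gained and 41.8% for lost regions. Within centres of 40 to 44% GC, a range chosen after the data had been seen, the shares were 15.8% of gained and 24.0% of lost regions for the interferon element, 40.8% and 31.0% for AP-1, and 63.1% and 58.9% for RUNX. Smaller differences were found for TEAD, at 48.4% of gained and 45.5% of lost regions, and CCAAT, at 74.2% and 77.5%. At 40 to 44% GC TEAD was at 49.6% and 46.0%, a difference near that of RUNX, and CCAAT at 75.9% and 77.9%. Over all GC values STAT was at 30.8% of gained and 32.3% of lost regions and C/EBP at 39.6% and 41.0%. MEF2 was at 16.9% and 17.2%, the steroid pair at 30.7% and 30.4%, and the E-box at 99.6% and 99.1%.

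**Figure D5:**
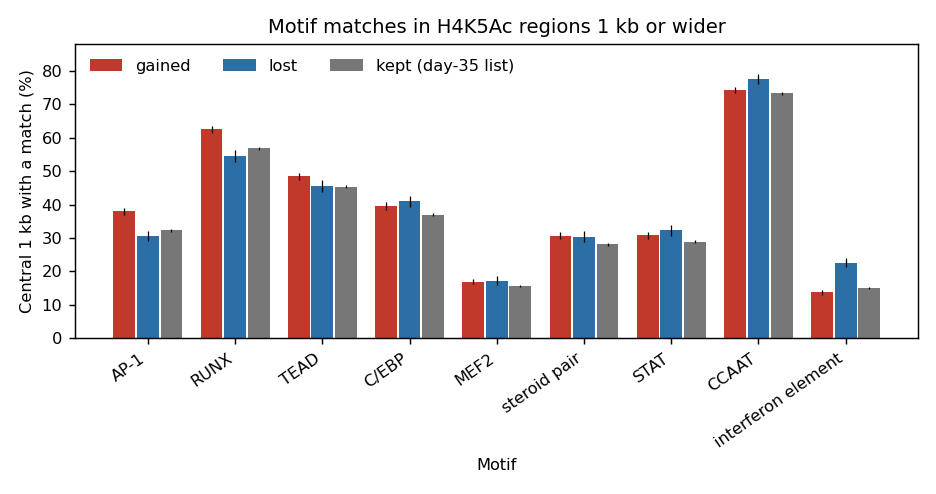
Share of H4K5Ac regions at least 1 kb wide whose central 1 kb holds a match to each motif (y axis, percent); red bars are gained, blue bars lost and grey bars kept regions of the day-35 list, with 95% exact binomial intervals of counting error. The interferon element stands at 13.8% of gained and 22.6% of lost regions, and AP-1 at 38% and 30.5%.

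Examples of such matches near listed genes are shown with 30 bases on each side, the match in capitals. The RUNX example is the highest-scoring of 20 gained regions nearest to osteoblast, mineralization or osteocyte genes. The interferon element was found in 2 such lost regions nearest to an interferon gene, both near Ifi44, of which the higher-scoring is shown.
Gained region near Cdh11, chr8:104621427-104621492, plus strand: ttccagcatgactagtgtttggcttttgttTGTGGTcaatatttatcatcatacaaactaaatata
Lost region near Ifi44, chr3:151356800-151356869, plus strand: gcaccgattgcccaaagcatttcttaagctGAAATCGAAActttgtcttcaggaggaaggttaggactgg

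The gained region nearest to Cdh11, osteoblast cadherin, lay 687.0 kb from its start in intergenic sequence and spanned 3.63 kb (chr8:104619723-104623357). The lost region near Ifi44, an interferon-induced gene, lay 55.8 kb from its start and spanned 1.43 kb (chr3:151356371-151357803). The window of Ifi44 itself was covered to 41.5% at day 35 and 38.5% at day 3.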

How the data were processed

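The authors deposited region lists, 1 per library, each region with a score, not defined in the labels. Bowtie, HOMER and the mm9 assembly are named in the submitters' processing notes, without versions or settings. All 26 lists lie within the chromosome ends of NCBIM37, whose gene annotation and sequence were used. Inputs were not used here.

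Regions sharing at least 1 bp with the other day's list were called kept, others gained or lost. Coverage was taken over each gene and 5 kb on each side, with a call over 25 percentage points. A start site was called covered where at least 50% of 1 kb on each side was. With 1 library a day, no test was made. Exact (Clopper-Pearson) 95% intervals cover counting error only. The promoters shown are those of listed genes whose start-site coverage rose most (3 genes) or fell most (3 genes), ties by window change, leaving out chromosome 18.

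Genes named were the 12 largest rises and 12 largest falls in kilobases, the nearest genes of the 10 highest-scoring and 5 widest regions of each class, up to 4 called members of each list and direction, the 5 largest each way without acetyl change, and a fixed set of bone, interferon and control genes; others were named after their values were seen. The members and lists were chosen with earlier results of these data known. Alternatives covered list length, gene window, call size, merging and chromosomes. Scripts used Python 3.11.15, numpy 2.4.6, pandas 2.3.3, scipy 1.17.1 and matplotlib 3.10.9, and were checked on simulated intervals. Some genes that the rule would name are not reported here.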

Additional observations from a re-analysis of the deposited data

How the results depend on the processing

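No paired analysis was possible because there was 1 library a day. With the day-35 list limited to the covered length of the day-3 list, 2560 regions were gained and 25666 lost, 445 genes were lower and 689 start sites lost, and H3K27Ac overlapped 95.7% of gained regions at day 35 and 60.4% of lost regions at day 3. With the higher-scoring 50% of each list there were 7511 gained and 4628 lost regions, most of which overlapped a lower-scoring region of the other day. H3K27Ac overlapped 97.5% and 97.9% of them on their own day. With equal numbers of regions these shares were 59.5% and 44.1%, and for regions at least 1 kb wide 76.5% and 68%. The gene window mattered as well: 371 genes were higher and 73 lower over the body and 20 kb, 891 and 466 over the body alone, and 1007 and 793 over 2 kb on each side of the start. Of the reported calls 41.3% of higher and 25.4% of lower genes were called with 20 kb, and 39.7% and 46.0% with 2 kb. A call at 10 points gave 2936 higher and 1475 lower genes, and at 50 points 78 and 22. Over 2 kb at the start, the changes of Dusp5 (-7.5 points), Kif26b (-0.475), Lrrc15 (-6.17), Sfrp1 (-6.4) and Tgfbr2 (-4.87) turned negative. The cause was not tested. At 40 to 44% GC the RUNX difference, lost minus gained, was -4.2 points, against -8.0. Without chromosome 1, 643 genes were higher and 245 lower, and with the mean change of the chromosome subtracted 584 and 297. The width, GC and chromosome alternatives were chosen after seeing the data. With equal numbers of regions 14157 were gained and 11606 lost. The median of the interferon gamma list was -27.8 points with the chromosome mean subtracted. Over 2 kb at the start it was -7.0, where that of the mitosis list was lower, at -29.2. With equal covered length it was -32.3, but there only day-35 regions are left out, so a change can only stay or fall. Read depth is unknown. In the lowest of 5 score classes 59.6% of regions at day 35 and 47.1% at day 3 had no overlap. Within the reported window, calls that ended included Kif26b (change of Kif26b 22.1 at equal covered length, 23.3 with the higher-scoring 50%), for Cp and Lox with the higher-scoring 50% (change of Cp -18.5, change of Lox -20.1), and for Cdk14 and Tgfbr2 with the chromosome mean subtracted (change of Cdk14 24.3, change of Tgfbr2 24.3).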
